A study of Bos taurus with 8 samples.

Results

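miR-423 is a microRNA (miRNA) whose short hairpin precursor gives rise to a mature strand from each side, miR-423-5p and miR-423-3p (bta-miR-423-5p and bta-miR-423-3p in the deposited table). Its 2 mature names, of 704 in the table, were taken by name with their levels and the ratio of their reads already known in these libraries, so these values are described without a test. Small RNA was obtained from plasma and blood cells of 4 cows (cows 44, 45, 46 and 47), which gave 8 libraries, 4 of each fraction, paired by cow. The cows were healthy, non-pregnant, normally cycling Holstein-Friesian cross heifers, sampled at 20 to 25 months of age without any treatment. Plasma was cleared by centrifugation and filtration, and RNA came from 0.7 mL of it. The blood cell fraction was a pellet of red blood cells and buffy coat, of which a 250 μL suspension was extracted, and its libraries therefore average over all blood cell types. An equal volume of RNA extract (5 μL) entered every library, whatever its RNA content.

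A miRNA precursor is cut by Dicer into a duplex of a 5p and a 3p strand, and an Argonaute protein usually keeps 1 strand, the guide, while the other, the passenger, is degraded. The strands carry different seed sequences and so recognise different targets, and for some miRNAs the more abundant strand is not the same in every tissue. miR-423 is found in many human tissues, and both of its strands are used as reference miRNAs for RT-qPCR in human blood, while miR-423-5p has also been studied as a circulating marker of human heart failure.

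In the coordinates of the deposited table (bovine genome bosTau4), miR-423-5p was placed at chr19:21234499-21234521 and miR-423-3p at chr19:21234534-21234557, both on the plus strand. They are 23 and 24 nucleotides long by these coordinates, with 12 nucleotides between them. In the RefSeq annotation of the later assembly ARS-UCD2.0, the precursor gene MIR423 lies within the span of NSRP1, a gene for a splicing regulator. Levels are given in RPMM, the normalised reads of the deposited table, scaled to the mapped miRNA reads of a library. No other name in the table mapped within 391 kb. The nearest names with a mean of at least 100 RPMM in either fraction were miR-144 and miR-451, the red blood cell miRNAs. They lay at 1086 kb and 1087 kb on the opposite strand. miR-144 and miR-451 had 9847 ± 1150 and 187081 ± 38070 RPMM in blood cells and only 584 ± 120 and 17695 ± 3457 in the plasma libraries (SD, n = 4), the opposite direction to miR-423.

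Libraries held 1453384 to 4296460 miRNA reads (plasma) and 11169204 to 14471979 (blood cells). The red blood cell markers miR-486, miR-451 and miR-144 together took 48.8% to 56.1% of RPMM in blood cells and 8.92% to 18.04% in plasma, and the leukocyte markers (miR-142-5p, miR-142-3p, miR-150, miR-155 and miR-223) took 2.51% to 3.10% and 3.19% to 6.82%. The platelet list of miR-223 and both arms of miR-126 took 0.0633% to 0.181% in blood cells and 0.715% to 1.36% in plasma. In blood cells this sum was mostly miR-223, also a leukocyte marker here (1069 RPMM on average, against 16.4 for miR-126-5p and 3.05 for miR-126-3p). In plasma miR-126-5p led (6478, against 2566 for miR-223 and 648 for miR-126-3p), so the sum is no measure of platelet content. No marker of these lists was at 0 reads in either fraction. Their part in the levels of miR-423 was not tested, and in such bulk libraries fewer cells of a type and less RNA per cell cannot be told apart.

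Both arms of miR-423 made up a larger share of the miRNA reads in plasma than in blood cells, and the 5p arm far more so than the 3p arm. miR-423-5p had 35643 RPMM in the plasma of cow 44, 35220 in that of cow 45, 38667 in that of cow 46 and 32105 in that of cow 47. Its levels in blood cells were 1056, 1655, 1024 and 1081 RPMM in the same order of cows. The plasma libraries were thus close together, the blood cells of cow 45 stood above those of the other cows, and the fractions did not overlap. Within a cow, the RPMM of miR-423-5p were 21.3 (cow 45) to 37.8 (cow 46) times as high in plasma as in blood cells, with a geometric mean of 29.95.

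miR-423-3p had 15943 RPMM in the plasma of cow 44, 15657 in cow 45, 19568 in cow 46 and 12573 in cow 47. In blood cells it had 3253, 2949, 2758 and 3014 RPMM in the same order. The fractions did not overlap for this arm either, cow 46 was highest and cow 47 lowest in plasma, and the blood cells of cow 45 lay within the range of the others. The within-cow ratio of plasma to blood cell RPMM was 4.17 (cow 47) to 7.10 (cow 46), with a geometric mean of 5.27. Plasma RPMM lay above blood cell RPMM without overlap for 64.1% of the 209 miRNAs abundant enough to be tested, and the ranges were apart in either direction for 87.1%. Since the members were chosen with this contrast in view, nothing is read from their place among these.

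**Figure D1:**
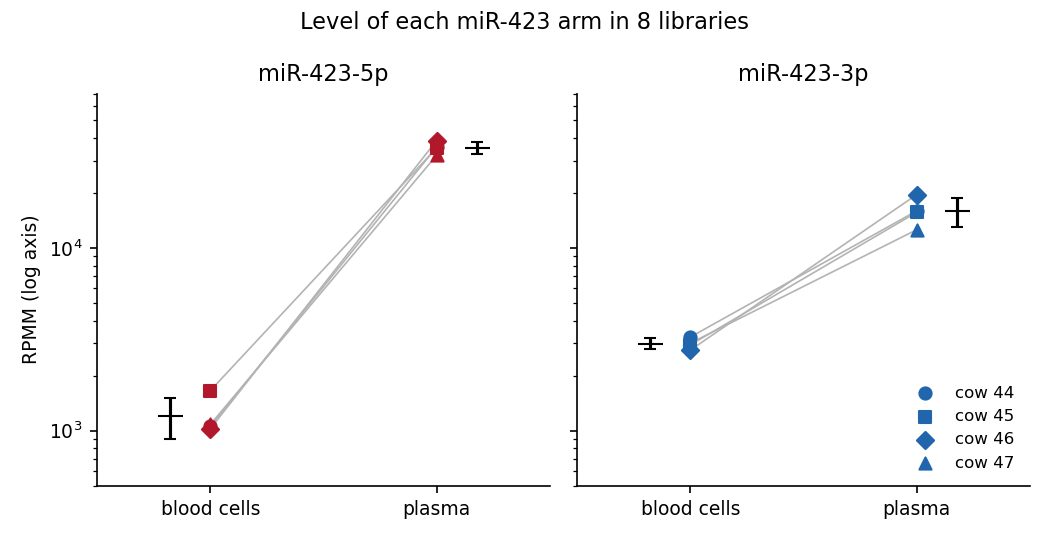
RPMM (log axis) of miR-423-5p and miR-423-3p in blood cells and plasma, with 1 symbol per cow, grey lines joining the libraries of a cow, and the mean ± SD of each fraction (n = 4) beside the points. The 5p arm goes from a mean of 1204 RPMM in blood cells to 35409 in plasma and the 3p arm from 2993 to 15935, and the blood cells of cow 45 stand above the others for the 5p arm, at 1655 RPMM.

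The main arm of miR-423 was 3p in every blood cell library and 5p in every plasma library. In blood cells the 5p arm took 24.5% (cow 44), 36.0% (cow 45), 27.1% (cow 46) and 26.4% (cow 47) of the reads of both arms. In plasma it took 69.1%, 69.2%, 66.4% and 71.9% in the same order. The narrowness of the exact Clopper-Pearson 95% intervals, such as 24.1% to 24.9% for the blood cells of cow 44 and 68.8% to 69.4% for the plasma of the same cow, reflects 45399 to 192471 miR-423 reads per library. Counting error is all that these intervals cover, as copies of 1 molecule made by PCR are counted separately, so the spread between cows is the better guide to the error. The mean share was 28.5% ± 5.10 (SD, n = 4) in the blood cell libraries and 69.1% ± 2.23 (SD, n = 4) in the plasma libraries, or 26.0% ± 1.33 in the blood cells of the 3 cows other than cow 45.

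**Figure D2:**
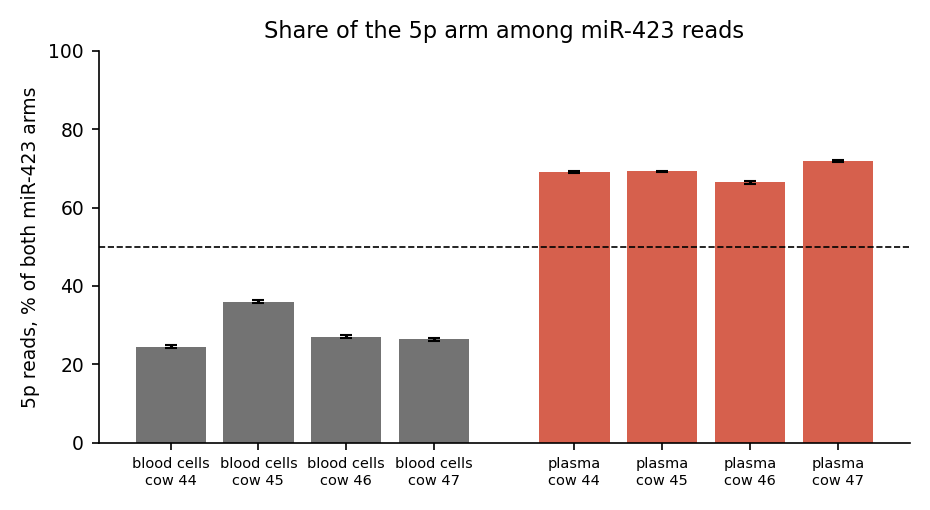
Share of 5p reads among the reads of both miR-423 arms (%) in each library, with exact 95% Clopper-Pearson intervals for counting error and a dashed line at 50%. The 4 blood cell bars lie between 24.5% and 36.0% and the 4 plasma bars between 66.4% and 71.9%, so the main arm differs between the fractions in every cow.

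As a ratio, miR-423-5p had 2.24, 2.25, 1.98 and 2.55 reads per read of miR-423-3p in the plasma of cows 44, 45, 46 and 47. In blood cells the same ratio was 0.325, 0.561, 0.371 and 0.359. The plasma ratio exceeded that of the blood cells of the same cow by 6.89, 4.01, 5.32 and 7.12 times, with a geometric mean of 5.69, or 6.39 without cow 45. On the log2 scale, the ratio was -1.34 ± 0.35 (SD, n = 4) in blood cells and 1.17 ± 0.15 (SD, n = 4) in plasma, a mean within-cow difference of 2.51 ± 0.39 (SD, n = 4 cows). Both arms are read in the same library, so this ratio does not depend on how libraries are scaled to each other. It is a ratio of reads and not of molecules, since adapter ligation and amplification can favour 1 sequence over another. The fractions are compared on the same pair of sequences, but whether such a bias was equal in both was not tested. The authors report more short RNA fragments in plasma, which they attribute to degradation and to the lower abundance of RNA there. The part of this difference in the arm ratio was not tested either.

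In the ranking of all names, miR-423-5p held place 5 to 7 in the plasma libraries and place 41 to 51 in the blood cell libraries. miR-423-3p held place 14 to 22 in the plasma libraries and was more steadily placed in the blood cell libraries, at 29 to 31. By mean RPMM, the neighbours of miR-423-5p in plasma (place 6) were miR-27b, miR-142-5p, miR-191 and miR-215, and in blood cells (place 46) they were miR-301a, let-7d, miR-15b and miR-128. For miR-423-3p the neighbours were miR-101, miR-186, miR-25 and miR-143 in plasma (place 20), and both arms of miR-151, miR-150 and miR-30d in blood cells (place 30). The range of each of these neighbours over the 4 libraries overlapped that of the arm, so the order among them is not resolved. Both arms together held 4.49% to 5.83% of the bovine miRNA reads in plasma and 0.379% to 0.461% in blood cells.

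The arms differed in how steady they were between cows. miR-423-5p varied less than most miRNAs between plasma libraries, with an SD of 0.11 on the log2 RPMM scale against a median of 0.36 over the 209 tested, and 1.91% of them had a smaller SD. Between blood cell libraries its SD was 0.33, above the median of 0.24. Its coefficient of variation there was 25.1% with cow 45 and 2.71% without it. With all cows, miR-423-3p was the steadier arm in blood cells, with an SD of 0.10 (8.13% of tested miRNAs were below it). Its coefficient of variation in blood cells was 6.83% with cow 45 and 8.24% without it. Without cow 45 the 5p arm was thus the steadier there, so the order of the arms in blood cells rests on that library. In plasma miR-423-3p had an SD of 0.26. Counting error adds more to the SD of scarce miRNAs than to that of abundant ones such as these arms. Its part in the comparison with other miRNAs was not separated.

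The blood cell library of cow 45 stood apart for miR-423-5p and not for miR-423-3p. Its log2 RPMM exceeded the mean of the other blood cell libraries by 0.65 for the 5p arm, the sixth largest such excess among the 209 tested miRNAs, and was 0.03 below it for the 3p arm. The 5 miRNAs with a larger excess, miR-411a, miR-380-3p, miR-381, miR-877 and miR-335, had at most 22.0 RPMM in that library, against 1655 for miR-423-5p. These names were picked after their values had been seen. Red blood cell markers took 48.8% of the RPMM there and 51.6% to 56.1% in the other blood cell libraries. Leukocyte markers lay within the range of the others at 2.76%, and so did the platelet list, mostly miR-223 in blood cells, at 0.0745%. The liver marker miR-122 had 0 reads in it. The part of these cell types in the level of miR-423-5p was not tested. The plasma of cow 45 had an arm ratio within the range of the other plasma libraries, at 2.25.

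A fold change between fractions, unlike the arm ratio, depends on scaling. TMM scaling, which assumes that most miRNAs do not differ, put the log2 fold change (plasma over cells) at 3.23 (standard error 0.17) for miR-423-5p and 0.73 (standard error 0.13) for miR-423-3p. With library totals alone these were 4.90 and 2.40, and the median over all tested miRNAs moved from 0.08 to 1.76. Relative to that median, miR-423-5p was at 3.15 and miR-423-3p at 0.64 under both scalings. Among 209 tested miRNAs, miR-423-5p was the 50th from the top and miR-423-3p the 89th, in either case. edgeR's quasi-likelihood test called 178 of the 209 (85.2%), of which 95 (45.5% of those tested) were higher in plasma, and no p is given for the miR-423 arms because they were chosen on this contrast.

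Other reference miRNAs of human blood had lower fold changes between plasma and blood cells than miR-423. The list, drawn up from general knowledge of RT-qPCR practice, held 10 further names, miR-191, miR-103, miR-16a, miR-16b, miR-93, miR-425-5p, miR-30e-5p, miR-222, let-7i and miR-484. With TMM scaling 8 of them were called lower in plasma, 0 higher, and 2, miR-103 and miR-222, were not called by edgeR's quasi-likelihood test, while 83 of all 209 tested miRNAs (39.7%) were called lower. Their log2 fold changes ran from -3.63 (miR-16a) to -0.26 (miR-222) with a median of -2.04, against 0.08 over all tested miRNAs. With library totals they ran from -1.96 to 1.41, 5 of them above 0, so the direction of miR-191, miR-103, miR-425-5p, miR-30e-5p and miR-222 turns with the scaling. Both miR-423 arms lay above all 10 under either scaling. Since the arms were chosen with these levels known, nothing is read from their place above this list. miR-191, next to miR-423-5p in the plasma ranking, reached 32448 ± 5319 RPMM in the plasma libraries but also 19656 ± 3144 in the blood cell libraries (SD, n = 4), where miR-423-5p had 35409 ± 2685 and 1204 ± 302.

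**Figure D3:**
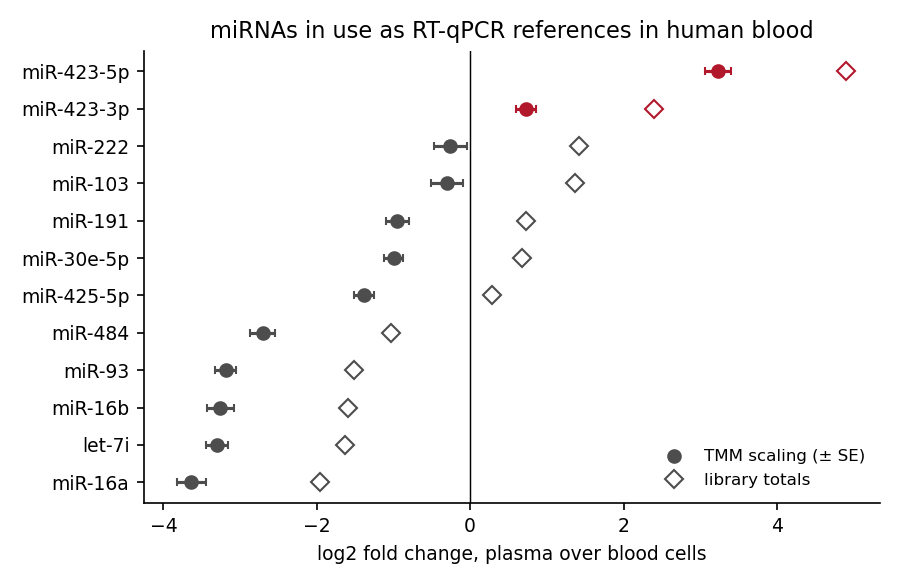
Log2 fold change between plasma and blood cells for both miR-423 arms (red) and 10 other miRNAs in use as RT-qPCR references in human blood (grey), with TMM scaling (filled circles, ± standard error) and with library totals (open diamonds). The miR-423 arms are at 3.23 and 0.73 with TMM scaling, above the highest of the others at -0.26 (miR-222), and stay above them with library totals.

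To see whether such a difference in arm usage is common here, the 5p to 3p ratio was compared between fractions for every bovine miRNA with both arms named in the table. Of 57 such pairs, 23 had a mean of at least 25 RPMM over all libraries for both arms together and at least 10 reads of each arm, and miR-423 was the third of the 57 by that mean. An arm-by-fraction term was put to edgeR's quasi-likelihood test in a model that also held the library and a cow-by-arm term. The ratio differed in 16 of the 22 pairs other than miR-423 (72.7%), towards 5p in plasma in 6 and towards 3p in 10. Ranges of the log2 ratio did not overlap between the fractions in 19 of the 23 pairs (82.6%), miR-423 among them. A difference in the ratio was therefore the usual case, and miR-423 was seventh of 23 by its size, with a fitted change of 2.51 (standard error 0.24) against a median absolute change of 1.82 over the other pairs.

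A change of the main arm that held in every library was less common. The main arm was the same in all 8 libraries for 17 of the 23 pairs. It was 1 arm in every plasma library and the other in every blood cell library for 2 pairs (8.7%), miR-423 and miR-331. As miR-423 was chosen with its ratio known, miR-331 is the only such case among the 22 other pairs. The remaining 4 pairs had a main arm that varied within a fraction. Like miR-423, miR-331 went from 3p in blood cells to 5p in plasma, with a 5p share of 39.9% ± 5.83 and 79.4% ± 4.02 (SD, n = 4) and a change in the log2 ratio of 2.56 ± 0.23 (SE, edgeR adjusted p = 3.44e-06, towards 5p in 4 of 4 cows). miR-331 was much scarcer than miR-423, with 65.8 ± 11.8 RPMM of 5p and 17.2 ± 4.64 of 3p in plasma (SD, n = 4), and with 96.8 ± 23.0 of 5p and 147 ± 38.7 of 3p in the cells (SD, n = 4). Its shift thus came with lower RPMM of both arms in plasma, most of all of 3p, whereas both arms of miR-423 had higher RPMM in plasma, most of all 5p. Without cow 47 the count rose from 2 to 4 pairs, by miR-151 and miR-1388, whose main arm then went from 5p in blood cells to 3p in plasma. Without cow 46 it was 3, by miR-199a, and without cow 44 or cow 45 it was 2. miR-423 was among them each time.

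**Figure D4:**
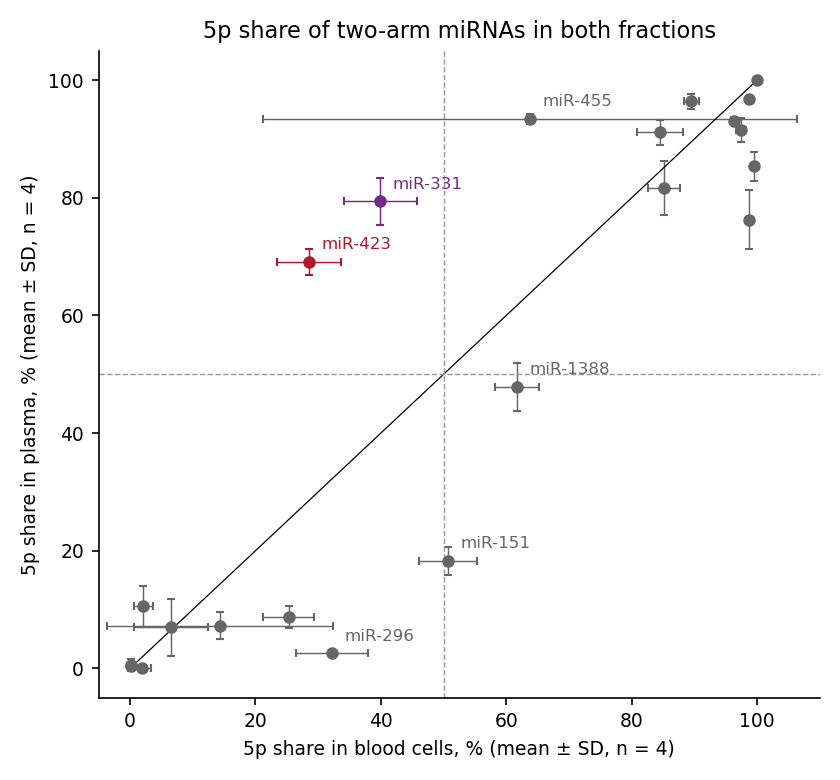
5p share (%) in plasma against 5p share in blood cells for 22 two-arm miRNAs (mean ± SD over 4 libraries), with the line of equal shares and dashed lines at 50%. Only miR-423 (28.5% in blood cells, 69.1% in plasma) and miR-331 (39.9% and 79.4%) have means to the left of one dashed line and above the other. The means of miR-151 (50.7% and 18.3%) and miR-1388 (61.7% and 47.9%) cross 50% in the opposite direction. miR-199a is not drawn because its 3p arm had 1 to 7787 reads per plasma library and its value is uncertain.

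Other pairs with large changes towards 5p in plasma were miR-365 at 2.40, miR-455 at 2.02 (not called) and miR-22 at 1.83. The main arm of miR-365 was 3p throughout (5p share of 2.14% in blood cells and 10.5% in plasma), as was that of miR-22, which had 0.104% and 0.371% of 5p. The pair miR-199a, at 20.21, is uncertain. Its 3p arm had 1, 2, 7787 and 4 reads in the plasma of cows 44, 45, 46 and 47, where miR-199c, a separate name, had 6083, 10769, 5 and 12556. Whether the same molecules were counted under either name was not tested. When miR-199c was added to the 3p arm, a step chosen after seeing the data, the 5p share was 8.85% ± 1.65 (SD, n = 4) in plasma and 0.0164% ± 0.0119 (SD, n = 4) in the cells. The largest changes towards 3p were those of miR-27a (-6.39), let-7a (-5.34), miR-6119 (-4.67), miR-296 (-4.18) and miR-151 (-2.21), all called. Of these, miR-296 had a 5p share near that of miR-423 in blood cells, 32.2% ± 5.78, and moved the other way, to 2.54% ± 0.478 in plasma (SD, n = 4).

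**Figure D5:**
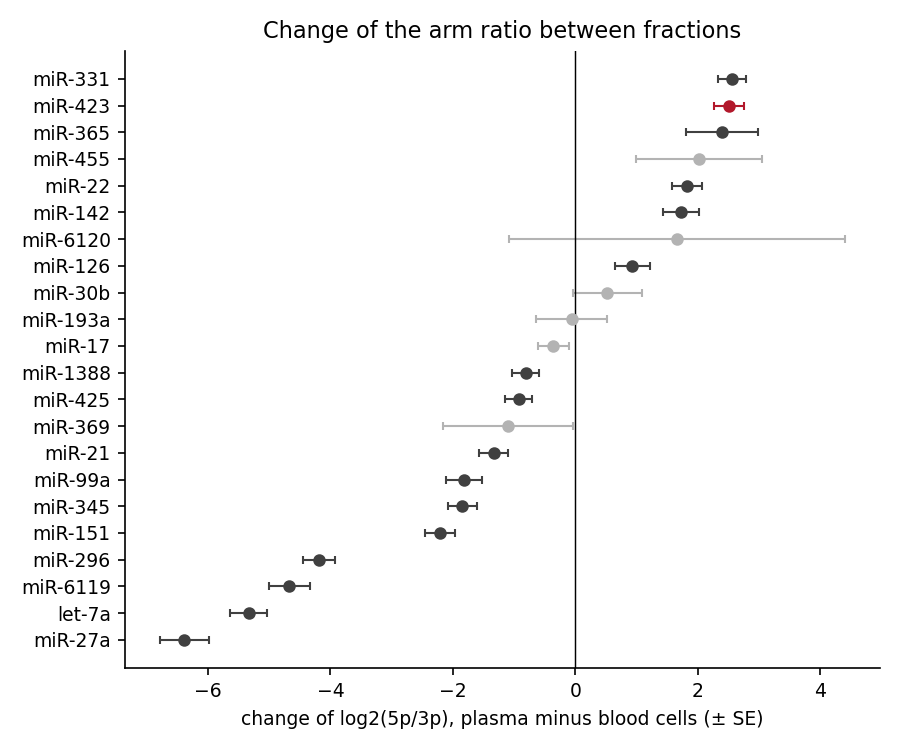
Change of the log2 ratio of 5p to 3p reads, plasma minus blood cells, from the edgeR model (± standard error) for 22 two-arm miRNAs, with miR-423 in red, other pairs called at an adjusted p under 0.05 in dark grey and pairs not called in light grey. Changes run from -6.39 (miR-27a) to 2.56 (miR-331), miR-423 is at 2.51, and miR-199a, at 20.21, is not drawn because its value is uncertain.

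Over all cows, the arm ratio of miR-423 varied less than that of most other pairs in plasma, and in blood cells its spread was nearer to theirs. Its SD on the log2 scale was 0.15 in plasma, where the median of the other 22 pairs was 0.34 and 2 of them had a smaller SD. In blood cells it was 0.35, against a median of 0.40, with 8 pairs below it. Without cow 45 the SD of miR-423 was 0.10 in blood cells and 0.18 in plasma. Its larger spread in blood cells than in plasma thus came from the library of cow 45. The spread of the other pairs without cow 45 is not given here. Some of the other pairs had few reads of their scarcer arm over all libraries, such as 10 for miR-6120 and 88 for miR-369, against 309931 for miR-423. Counting error adds to the SD of such pairs, and its part was not separated. The ratio in the blood cells of cow 45 exceeded the mean of the other blood cell libraries by 0.68 on the log2 scale for miR-423. In 1 of the other 22 pairs, miR-455, which had under 1 RPMM of either arm in blood cells on average, this excess was larger, and the median over the 22 was 0.11.

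The miRNAs with the most similar profile were not the same for the 2 arms. Likeness was taken as the root mean square difference of log2(RPMM + 1) over the 8 libraries, each miRNA centred on its own mean, among the 209 tested. Those nearest to miR-423-5p were miR-154c (0.21), miR-127 (0.26), miR-432 (0.28), miR-380-3p (0.29) and miR-494 (0.30), which all map to chromosome 21 in the deposited table and were far scarcer, with 34.9 to 1315 RPMM on average in plasma. Those nearest to miR-423-3p were miR-378 (0.17), miR-30d (0.17), miR-874 (0.19), miR-320a (0.25) and miR-2285t (0.29), which map to 5 different chromosomes. miR-423-3p itself was 68th of 208 in likeness to miR-423-5p, at 1.27, and miR-423-5p was 104th in likeness to miR-423-3p. This likeness is a description over 8 libraries that fall into 2 fractions, and the 1 RPMM added before the logarithm compresses the difference of scarce miRNAs. miR-154c, miR-432 and miR-494 had 1.09, 0.606 and 0.683 RPMM on average in blood cells, and their TMM-scaled log2 fold changes, 4.44, 4.13 and 4.92, were larger than the 3.23 of miR-423-5p. Their likeness thus depends on that added value.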

How the data were processed

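Reads of 36 nucleotides (single end) were stripped of adaptors by the authors, who removed reads under 15 nucleotides and mapped the rest to bosTau4 and miRBase 21 with sRNAbench 1.0 and, per the submitters' processing notes, Bowtie 0.12.9, allowing 1 mismatch. They deposited raw read counts per mature miRNA and a normalised signal in RPMM, with bovine names and human homologues scaled separately. RPMM of the miR-423 arms are as deposited. Human homologues were put on the bovine scale.

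Counts of names with at least 25 RPMM in at least 3 libraries of either fraction (209 of 704) were fitted with edgeR's quasi-likelihood method (edgeR 4.0.16, limma 3.58.1, R 4.3.3), blocking on cow, with TMM scaling and p-values adjusted by Benjamini-Hochberg (threshold 0.05). Standard errors are the absolute log2 fold change over the square root of F. Arm pairs were fitted with 1 row per pair, library and arm as columns, and terms for library, arm, cow by arm and fraction by arm, after tests on simulated data.

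Fractions are paired because both come from the same animal. Across miRNAs, the deviations of a cow's plasma and blood cell libraries from the fraction means correlated at 0.051, 0.056, 0.076 and 0.234 (cows 44, 45, 46 and 47). Between libraries of different cows they correlated at -0.174 to 0.106. The plasma of cow 46 was nearer to the blood cells of cow 44 (0.106), and that of cow 45 to the blood cells of cow 46 (0.058), than to their own. For cows 44 and 47 the own pair was the highest.

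The members and all lists were chosen with earlier results of these data known. The miRNAs named are the members, the 5 pairs with the largest change in each direction, the 5 nearest profiles, rank neighbours, reference miRNAs and markers. Names sharing a seed were not looked up and no sequence is shown. Alternatives were other scalings, DESeq2 1.42.0, limma on log2 ratios with 0.5 reads added, other filters, no block and leaving out each cow.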

Additional observations from a re-analysis of the deposited data

Results flagged for a closer look

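The level of miR-423-5p in the blood cells of cow 45, 1655 RPMM, stood far from the other blood cell libraries, at 1024 to 1081 RPMM. Its gap to the nearest of them was 0.910 of the whole range, above Dixon's limit for 4 samples. Among 15 sets of 4 values for the arms, their sum, share, ratio and fold changes, this was the 1 that passed the limit. Chance passes about 1 in 20, so 1 pass among 15 sets is near what chance gives. The sets are also not independent, as the 5p level enters the sum, share and ratio too. Without cow 45, the within-cow RPMM of miR-423-5p were 29.7 to 37.8 times as high in plasma as in blood cells.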

How the results depend on the processing

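The within-cow difference in the log2 arm ratio of miR-423, 2.51, was 2.40 to 2.68 when each cow was left out, and it was 2.51 both with deposited RPMM and in the edgeR arm model and 2.47 with pooled reads. With library totals the log2 fold changes of the arms moved to 4.90 and 2.40, and calls higher in plasma went from 53.4% to 72.9% of all calls. Other alternatives left the fold changes within 1 SD over cows, at 3.18 to 3.39 and 0.64 to 0.81 without each cow. Without the filter, 331 of 704 names were called in place of 178 of 209. Without the replicate block, fold changes were 3.22 and 0.73 and 174 miRNAs and 17 of 22 pairs were called. The 16 pairs called became 15 to 16 without each cow, 18 with limma, 16 with DESeq2, 15 of 18 at 100 RPMM or more and 24 of 56 with no level filter. Depth limits the pairs with few reads of 1 arm, not miR-423, whose scarcer arm had at least 11809 reads in every library.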
